A study of Homo sapiens with 8 samples.

Results

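The histone genes of the human genome were followed in the G401 cell line, which was derived from a kidney rhabdoid tumor and has lost SMARCB1. Members were the protein-coding genes whose GENCODE symbols begin with the prefixes of the linker histone H1, the core histones H2A, H2B, H3 and H4, the H2A.Z and H2A.X genes or the macroH2A genes. The rule gave 84 of the 69215 genes in the count tables, and 31 further symbols of the same pattern were left out because they were not annotated as protein-coding. Of the 84 genes, 68 lay in the histone clusters of chromosomes 6 and 1, 3 were named like cluster genes but lay elsewhere (H2BC12L, H3-4 and H4C16), and 13 were variant genes.

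SMARCB1 is a core subunit of the SWI/SNF chromatin remodelling complexes. The cells carried a Tet-On construct, in which doxycycline (Dox) turned on either SMARCB1 or, in the control line, GFP. Each line was exposed for 12 h to 0.1 µg/ml Dox or to the solvent dimethylsulfoxide (DMSO). This gave 4 groups of 2 libraries, named SMARCB1 DMSO, SMARCB1 Dox, GFP DMSO and GFP Dox, and the DMSO groups carried the same constructs as their Dox partners. Per the study's methods, plates of a condition were pooled before RNA was prepared, so that a library averages over cultures. Each construct is represented by a single engineered line, and a difference between the lines cannot be told apart from a difference between the constructs. Nothing in the sources states that the paired libraries came from cultures grown on separate days, so p-values measure only the spread between libraries.

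Libraries held 29632090 to 37597477 counts assigned to genes. SMARCB1 was at 10 and 21 counts in the SMARCB1 DMSO libraries, at 30474 and 29383 counts with Dox in that line, and at 0 counts in all 4 GFP libraries, where a count of 0 allows up to 0.0798 to 0.101 CPM (counts scaled to a library of 1000000). VIM, KRT8 and KRT18, expected in rhabdoid cells, were at 212 CPM or more in every library. Of the markers of blood, endothelial, liver and other epithelial cells, PTPRC, CD3E, PECAM1, CDH5, ALB and EPCAM reached at most 0.450 CPM and HBB at most 3.67 CPM. Library SMARCB1 DMSO 1 stood apart in its share of mitochondrially encoded counts, 27.9% against 18.9% to 23.9% in the other libraries. SMARCB1 Dox 1 stood apart in the histone genes themselves, as described below.

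Histones package DNA into nucleosomes. Replication-dependent histone genes, most of which sit in clusters, are transcribed mainly in S phase, have no introns in their coding part, and end in a conserved stem-loop in place of a poly(A) tail. The stem-loop is bound by SLBP, and NPAT is the factor that activates these genes at the histone locus body. Variant histones are made throughout the cell cycle from polyadenylated mRNAs and replace the canonical proteins at particular sites, H3.3 at active genes, H2A.Z at promoters and H2A.X as the substrate of DNA damage signalling.

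The stem-loop set the clustered genes apart from the rest of the genome by sequence. The pattern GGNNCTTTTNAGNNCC, read on the sense strand within 150 bases after an annotated stop codon, was held by 70 of 19907 protein-coding genes (0.352%). Of those 70 genes, 69 were members and the remaining one was TIPARP. The pattern was present in 65 of 68 clustered genes, in 2 of the 3 genes outside the clusters and in 2 of 13 variant genes, H2AX and H3-7. Clustered genes with no match in this window were H2BC10, H3C6 and H4C13. The elements below are shown because they tell the H4 genes, whose stem begins with GGCCC, from the other families, whose stem mostly begins with GGCTC. Capitals mark the 16 bases of the stem-loop in the hg38 assembly, written 5′ to 3′ on the strand of the gene.
H1-1 (chr6:26017032-26017057, minus strand): ccaacGGCTCTTTTAAGAGCCaccta
H2AC25 (chr1:228457364-228457389, minus strand): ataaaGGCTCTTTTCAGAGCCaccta
H2BC9 (chr6:26252050-26252075, plus strand): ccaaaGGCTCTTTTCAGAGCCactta
H3C2 (chr6:26031592-26031617, minus strand): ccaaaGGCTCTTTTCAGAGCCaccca
H4C6 (chr6:26240773-26240798, plus strand): taaaaGGCCCTTTTCAGGGCCacctc
H4C4 (chr6:26188710-26188735, minus strand): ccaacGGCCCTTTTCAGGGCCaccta
H2AX (chr11:119094893-119094918, minus strand): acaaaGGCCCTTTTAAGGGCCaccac
The GGCCC stem occurred in all 14 H4 genes with a match and, among the other families, in H2AX. Across the 69 genes there were 8 distinct 16-base forms, the most frequent of which was shared by 41 genes of the H1, H2A, H2B and H3 families.

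Promoters of the clustered genes also had common letters. RefSeq windows from 250 bases before to 50 bases after the start (GRCh38.p14) matched 76 of the 84 members. With both strands searched, CCAAT was in the windows of 54 of 63 matched clustered genes, TATAAA in 42 and the octamer ATTTGCAT in 26. The same motifs were found for 39.7%, 14% and 2.19% of the 27305 genes with a window. Among the clustered genes, the octamer was found in 11 of 16 H2A and 14 of 18 H2B windows. It was in 1 of 11 H3 windows and in no H1 or H4 window, and CCAAT was in 3 of 12 H4 windows. Of 11 matched variant genes, 9 held CCAAT, 5 TATAAA and 1 the octamer. CCAAT therefore did not set the clustered genes apart from the variants. Many H2A and H2B genes lie head to head, 12 such pairs with 170 to 251 bases between their starts, so their windows overlap and are not independent. The 250 bases before the start are given for H1-1 and H4C6, whose values are described below, and for H2BC21, the H2B gene of the head-to-head pair with the highest summed level. Capitals mark the 3 motifs on either strand.
H1-1 (chr6:26017788-26018037, minus strand): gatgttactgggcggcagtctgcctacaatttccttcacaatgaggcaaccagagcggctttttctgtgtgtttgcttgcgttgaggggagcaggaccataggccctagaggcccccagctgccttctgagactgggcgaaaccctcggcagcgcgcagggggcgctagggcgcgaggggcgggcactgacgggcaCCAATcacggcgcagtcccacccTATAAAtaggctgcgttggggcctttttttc
H2BC21 (chr1:149886683-149886932, minus strand): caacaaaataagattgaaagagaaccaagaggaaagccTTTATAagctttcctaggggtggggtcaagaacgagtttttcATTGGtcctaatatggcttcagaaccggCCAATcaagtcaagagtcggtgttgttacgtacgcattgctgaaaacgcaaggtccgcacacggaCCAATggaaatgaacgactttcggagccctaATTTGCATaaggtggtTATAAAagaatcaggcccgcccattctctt
H4C6 (chr6:26240143-26240392, plus strand): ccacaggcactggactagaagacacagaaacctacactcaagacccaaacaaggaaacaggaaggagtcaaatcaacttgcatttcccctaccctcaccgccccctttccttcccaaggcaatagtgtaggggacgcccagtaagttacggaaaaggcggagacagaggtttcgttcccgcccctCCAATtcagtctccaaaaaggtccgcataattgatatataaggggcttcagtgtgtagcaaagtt
In H2BC21 the octamer began 46 bases and TATAAA 30 bases before the start, and a further TATAAA on the opposite strand, 212 bases before the start, faced the neighbouring H2AC20. H1-1 held CCAAT 54 bases and TATAAA 31 bases before its start. The H4C6 stretch held a single CCAAT and neither of the other motifs.

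Of the 84 members, 74 passed the expression filter, 62 clustered, 2 outside the clusters and 10 variant genes. H2AC1, H2BC1, H4C7, H4C13 and H1-8 had no count in any library, which over the 8 libraries together allows up to 0.0110 CPM each. The remaining 5 members under the filter, H1-6, H3C11, H3-4, H1-7 and H3-7, reached at most 0.197 CPM. H1-6, H2AC1, H2BC1, H3-4 and H1-8 are known as testis or oocyte histones.

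Clustered genes together gave 0.244% to 0.365% of all assigned counts. H2B genes supplied 34.3% to 37.9% of the clustered counts per library, H3 genes 28.7% to 30.3%, H4 genes 11.8% to 13.2%, H1 genes 10.6% to 12.5% and H2A genes 9.61% to 11.1%. The 10 genes with the most counts held 46.1% of the clustered counts and the top 20 held 71.2%. Per kb of annotated exon, the level over all 8 libraries was highest in H4C4 (391 CPM per kb), followed by H3C2 (307), H3C8 (256), H2BC14 (210), H3C3 (209), H3C12 (173), H2BC7 (170) and H2BC12 (165). The median of the 62 clustered genes was 34.2 CPM per kb and the lowest was H3C4 with 0.684. Variants ran from 0.592 (H3-5) to 86.4 CPM per kb (H2AX), with a median of 17.5. The divisor is all annotated exon bases, a median of 500 in tested clustered genes and 3048 in tested variants. H2BC21, at 222 CPM over 2224 bases, came to 99.7 CPM per kb. MACROH2A1, at 205 CPM over 17013 bases, came to 12.1. The ranking per kb and the contrast with variants therefore depend on the annotated length.

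These levels also depend on which reads could be assigned. Between 7.62% and 8.54% of the reads of a library were set aside by the counter as aligned to several places, and 2.86% to 3.35% as ambiguous between genes. A window of 50 bases was called unique when it occurs once in hg38 on either strand. Of the 62 clustered genes, 49 had at least 50% unique windows and 6 had none, namely H2AC18, H2AC19, H3C14, H3C15, H4C14 and H4C15. These are neighbouring copies on chromosome 1, and their levels of 1.49 to 8.41 CPM per kb are uncertain. H4C11 and H4C12, with 7.94% and 7.40% unique windows, gave 7.15 and 18.6 CPM per kb, whereas H3C13, H2BC18 and H2BC12, with 27.9%, 29.4% and 42.8%, gave 156, 58.8 and 165 CPM per kb. H3C4 and H2AC7 are unique in sequence but overlap another annotated gene on the same strand over 96.6% and 85.3% of their exon bases, as do H2AC17 and H3C12 with each other, and reads in such an overlap are ambiguous for a counter that assigns by gene. The low value of H3C4 and the values of H2AC7, H2AC17 and H3C12 (40.3% of its exon bases) carry that limit. The strand setting of the counter is not given. Overlaps on the opposite strand, such as 30.9% in H2BC4 and 28.2% in H2BC6, may therefore carry it as well.

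**Figure D1:**
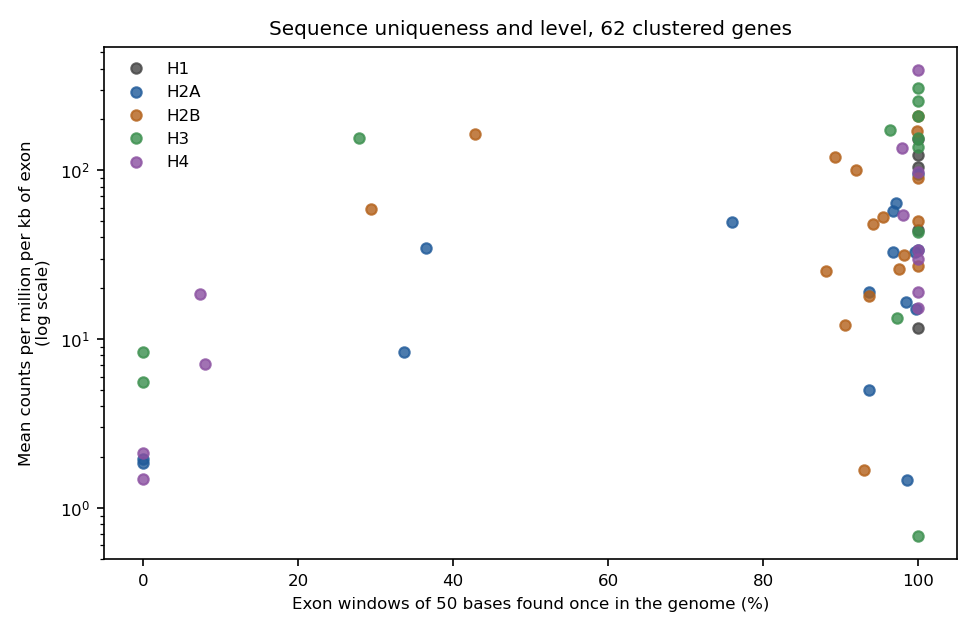
Share of 50-base exon windows found once in the genome (x axis, percent) against the mean level over 8 libraries (y axis, CPM per kb of exon, log scale) for the 62 clustered genes that passed the filter, coloured by family. The 6 genes at 0% lie between 1.49 and 8.41 CPM per kb, whereas genes at or near 100% range from 0.684 to 391 CPM per kb.

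The main comparison asked what changed in the histone genes when SMARCB1 was re-expressed. Clustered histone mRNA was higher with Dox in the SMARCB1 line. The summed level was 2685 and 2718 CPM in the SMARCB1 DMSO libraries and 3641 and 3078 CPM with SMARCB1 Dox, a ratio of 1.24. Both Dox libraries lay above both DMSO libraries, but the Dox libraries differed from each other by more than SMARCB1 Dox 2 differed from the DMSO libraries. In the GFP line the sums were 2921 and 2495 CPM with DMSO and 2956 and 2485 CPM with Dox, a ratio of 1.00. The groups there overlapped, and replicate 1 was the higher library under both treatments. In bulk RNA, a larger share of cells in S phase and more histone RNA per cell cannot be told apart.

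Gene by gene, 25 of the 62 clustered genes rose with Dox in the SMARCB1 line and none fell (edgeR quasi-likelihood test, Benjamini-Hochberg adjusted p under 0.05 over 15931 genes). That is 40.3% of the clustered genes, against 14.0% of all genes tested called, 8.33% higher and 5.69% lower. Scaled to library totals, 40 clustered genes were called higher, against 12.5% of all genes. All 62 log2 fold changes were above 0, with a median of 0.32 and a range of 0.11 to 0.74. Of all genes tested, 49.2% were above 0. Clustered genes also moved together between replicates of a group, so the 62 are not independent. SMARCB1 Dox 1 lay above SMARCB1 Dox 2 in 61 of 62 genes, and SMARCB1 DMSO 1 above SMARCB1 DMSO 2 in 25. GFP DMSO 1 lay above GFP DMSO 2 in 56, and GFP Dox 1 above GFP Dox 2 in 59. In 52 of the 62 genes both Dox libraries exceeded both DMSO libraries, as they did in 25.9% of all genes tested. With GFP induced, no clustered gene and no other gene passed the test (background 0%). None of the 62 had an unadjusted p under 0.05 in the GFP line, 266 of all 15931 genes had one, and DESeq2 also called 0. The clustered median in the GFP line was 0.01, with 33 genes above 0 and 29 below.

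**Figure D2:**
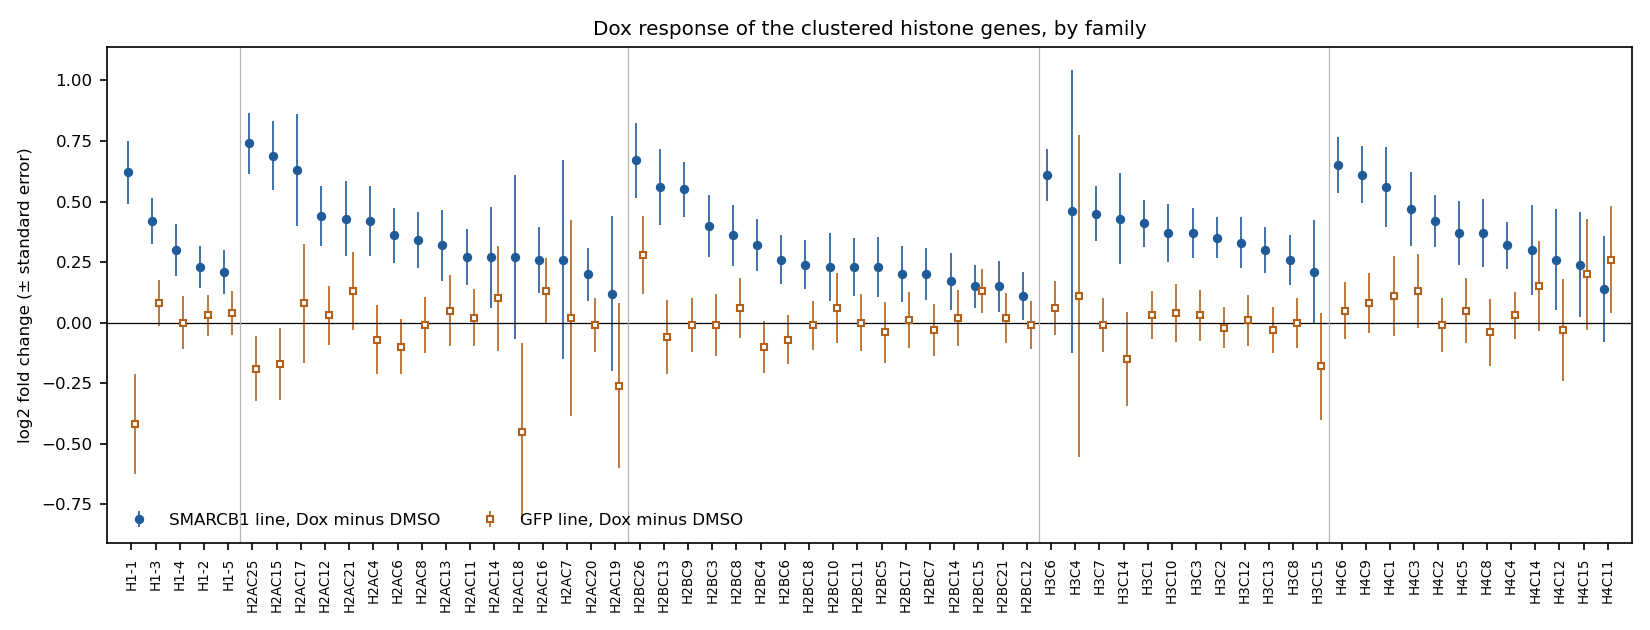
Log2 fold change with Dox (y axis, ± standard error from the edgeR fit) of the 62 clustered genes that passed the filter, ordered within the H1, H2A, H2B, H3 and H4 families (separated by grey lines), in the SMARCB1 line (filled circles) and the GFP line (open squares). All 62 circles lie above 0, from 0.11 to 0.74, while the squares scatter on both sides of 0 around a median of 0.01.

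One library carried much of the count. Taken pair by pair, the median log2 ratio of the 62 genes was 0.47 and 0.43 for SMARCB1 Dox 1 over the DMSO libraries 1 and 2, and 0.21 and 0.17 for SMARCB1 Dox 2. The Dox libraries differed from each other by a median of 0.29, and replicates 1 and 2 of GFP DMSO and of GFP Dox each by 0.21, whereas the SMARCB1 DMSO libraries differed by -0.03. Without SMARCB1 Dox 1 the median was 0.19, with 59 genes above 0, and most of the clustered calls were lost. In that fit the share of clustered genes called came close to that of all genes called in either direction. Fewer of all genes were called there as well. Without SMARCB1 Dox 2 the median was 0.46. Leaving out SMARCB1 DMSO 1 or 2 gave medians of 0.32 and 0.37, with fewer clustered calls in both. The 5 clustered genes that kept their call with each of the 8 libraries left out in turn were H1-1, H2AC25, H3C6, H4C6 and H4C9.

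The same direction was seen in all 5 families. Sums over the clustered genes of a family went from 324 ± 18.3 to 400 ± 23.7 CPM for H1, from 276 ± 0.125 to 363 ± 58.6 CPM for H2A and from 991 ± 1.97 to 1159 ± 125 CPM for H2B (mean ± SD, n = 2 libraries per group). For H3 they were 783 ± 2.22 and 1003 ± 125 CPM, and for H4 328 ± 5.32 and 434 ± 66.0 CPM. The ratios ran from 1.17 for H2B to 1.33 for H4, and the Dox libraries lay above the DMSO libraries in every family. Calls were made in 8 of 12 H3 genes, 6 of 12 H4 genes, 2 of 5 H1 genes, 5 of 16 H2A genes and 4 of 17 H2B genes. Differences between the families were not tested.

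**Figure D3:**
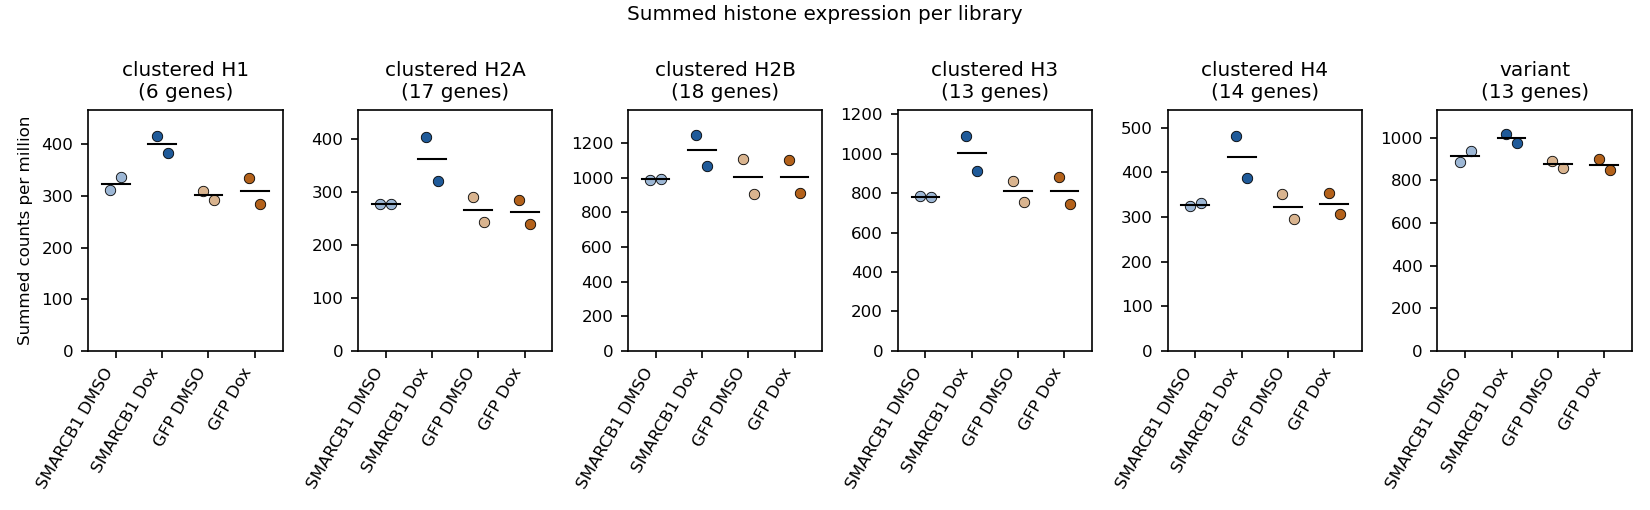
Summed CPM per library (y axes, starting at 0) of the clustered genes of each family and of the variant genes, by group. Points are the 2 libraries of a group, replicate 1 on the left, and bars are their mean. In every clustered family both SMARCB1 Dox points lie above the SMARCB1 DMSO points, with replicate 1 the higher, and in the GFP groups replicate 1 is also the higher library.

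By position, the clusters fell into 3 stretches on chromosome 6 and 2 on chromosome 1, split where neighbours lay more than 500000 bases apart. In the largest, chr6:25723397-26285638, 16 of 30 tested genes were called, with a median of 0.37. The neighbouring stretches on chromosome 6, chr6:27125897-27147562 and chr6:27807479-27893891, gave 2 of 5 and 4 of 14 calls with medians of 0.27 and 0.26. At chr1:149782689-149887965, which holds the copies without unique windows, 1 of 11 genes was called and the median was 0.24. The pair H2AC25 and H2BC26 at chr1:228434777-228463104 were both called. Clustered genes with at least 50% unique windows gave 24 of 49 calls and a median of 0.37, and the 13 others gave 1 call, H3C13 (0.30, lost with the GC correction and block, at 0.14, with only the groups compared, and without SMARCB1 DMSO 1, SMARCB1 DMSO 2 or SMARCB1 Dox 1), and a median of 0.26. Genes whose annotated exons ended within 20 bases of the stem-loop had a median of 0.35 (20 of 46 called), and those annotated beyond it a median of 0.28 (4 of 14 called). These splits are descriptions and were not tested against each other. Beside them, 8.33% of all genes tested were called higher. The shares at chr1:149782689-149887965 (9.09%) and in the genes with under 50% unique windows (7.69%) were near that.

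The largest called change among clustered genes was in H2AC25, an H2A gene of the small cluster on chromosome 1 that is divergent from H2BC26. It was at 28.8 and 24.2 CPM with DMSO and at 51.0 and 37.4 CPM with Dox. Both Dox libraries lay above both DMSO libraries, with a log2 fold change of 0.74 ± 0.127 (SE, edgeR adjusted p = 0.000333). H2BC26, its H2B partner, was at 8.37 and 6.88 CPM with DMSO and at 13.6 and 10.6 CPM with Dox. The groups were again apart, by 0.67 ± 0.154 (edgeR adjusted p = 0.00477). This call was lost without SMARCB1 DMSO 2, at 0.53, or without SMARCB1 Dox 1, at 0.48. The annotated exons of H2AC25 cover 1850 bases and reach 22592 bases past the stem-loop. Those of H2BC26 cover 5002 bases and reach 4551 bases past it. The median of tested clustered genes is 500 exon bases. Which part of the exons gave the counts was not examined.

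H2AC15, an H2A gene of the stretch at chr6:27807479-27893891, went from 8.06 and 9.01 CPM to 15.5 and 12.0 CPM, a change of 0.69 ± 0.143 (edgeR adjusted p = 0.00209). Leaving out SMARCB1 Dox 1 gave 0.50 and ended the call. Its head-to-head neighbour H2BC15, with 170 bases between their starts, had 52.3 and 51.2 CPM with DMSO and 60.7 and 54.3 CPM with Dox, a log2 fold change of 0.15 that did not pass (edgeR adjusted p = 0.314). The difference between the neighbours was not tested.

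Among H4 genes, H4C6 was at 35.2 and 37.9 CPM with DMSO and at 63.8 and 51.2 CPM with Dox, 0.65 ± 0.116 (edgeR adjusted p = 0.000456). H4C9 was at 20.4 and 21.2 CPM with DMSO and at 35.6 and 28.1 CPM with Dox, 0.61 ± 0.118 (edgeR adjusted p = 0.00104). Both genes were apart between the groups and kept their calls without any 1 library. H4C1, a weaker H4 gene, went from 6.28 and 6.70 CPM to 11.2 and 7.93 CPM, 0.56 ± 0.167 (edgeR adjusted p = 0.0265). Its call was lost without SMARCB1 DMSO 1, SMARCB1 DMSO 2 or SMARCB1 Dox 1, down to a log2 fold change of 0.29. Most H4 genes encode the same protein.

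H3C6, which encodes a canonical H3 but for which no stem-loop was found in the window searched, was at 31.6 and 30.2 CPM with DMSO and at 53.4 and 41.2 CPM with Dox. The Dox libraries were the higher ones, by 0.61 ± 0.109 (edgeR adjusted p = 0.000465). The annotated exons of H3C6 cover 2679 bases, and which part gave the counts was not examined. The abundant H3C2 went from 146 and 147 CPM to 198 and 176 CPM, 0.35 ± 0.0842 (edgeR adjusted p = 0.00625, lost without SMARCB1 Dox 1, at 0.27). Among the linker histones, H1-3 went from 88.5 and 91.7 CPM to 125 and 116 CPM, 0.42 ± 0.0938 (edgeR adjusted p = 0.00385, lost without SMARCB1 Dox 1, at 0.37). H1-2, the H1 gene of highest level per kb, was at 99.6 and 109 CPM with DMSO and 123 and 122 CPM with Dox and did not pass (0.23, edgeR adjusted p = 0.0773).

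Of the 8 replication-dependent genes of highest level per kb, 4 were called, H4C4, H3C2, H3C3 and H3C12, at log2 fold changes of 0.32, 0.35, 0.37 and 0.33. The other 4, H3C8, H2BC14, H2BC7 and H2BC12, had log2 fold changes of 0.26, 0.17, 0.20 and 0.11 and did not pass. H4C4, the most abundant per kb, was at 147 and 145 CPM with DMSO and at 196 and 167 CPM with Dox (edgeR adjusted p = 0.0313). Its call was lost without SMARCB1 DMSO 1, SMARCB1 DMSO 2 or SMARCB1 Dox 1, where the log2 fold change reached 0.19. H2BC12L and H4C16, named like cluster genes but on chromosomes 21 and 12, had log2 fold changes of 0.60 and 0.55 from levels under 3 CPM and did not pass, and H2BC12L has no unique window.

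To ask whether the Dox response itself differed between the lines, the GFP response was subtracted in the same fit. The difference was above 0 in 61 of 62 clustered genes, which are not independent of each other, against 49.1% of all genes tested. The median was 0.33, and 6 of the 62 passed, all higher in the SMARCB1 line. Of all genes tested 4.71% passed, 3.07% higher and 1.64% lower. The 6 were H1-1, H2AC25, H2AC15, H4C6, H3C6 and H2BC9. No variant gene and neither of the genes outside the clusters passed. Only H2AC25 passed with each of the 8 libraries left out in turn, and the count ran from 1, without GFP Dox 2, to 16, without SMARCB1 Dox 2.

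H1-1, a linker histone with 1.39 to 2.13 CPM across the 4 GFP libraries and 12.3 to 19.4 CPM across the SMARCB1 libraries, gave the largest of these differences. Its level rose from 12.3 and 12.6 CPM to 19.4 and 19 CPM in the SMARCB1 line, 0.62 ± 0.129 (edgeR adjusted p = 0.00207), and was 2.13 and 1.67 CPM with DMSO and 1.43 and 1.39 CPM with Dox in the GFP line. The responses differed by 1.04 on the log2 scale (edgeR adjusted p = 0.0135, lost without GFP DMSO 1, GFP Dox 1 or GFP Dox 2, range 0.86 to 1.22). H2AC25 had 23.0 and 19.8 CPM with GFP DMSO and 19.9 and 17.7 CPM with GFP Dox, and its responses differed by 0.93 (edgeR adjusted p = 0.00397). H2BC9, an H2B gene of the largest cluster on chromosome 6, rose from 33.9 and 37.4 CPM to 57.1 and 47.2 CPM in the SMARCB1 line and was at 42.1 and 37.2 CPM with DMSO and at 44 and 34.9 CPM with Dox in the GFP line. Its responses differed by 0.55 (edgeR adjusted p = 0.0459, lost without GFP DMSO 1, GFP Dox 2, SMARCB1 DMSO 1 or SMARCB1 Dox 1, down to 0.40).

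**Figure D4:**
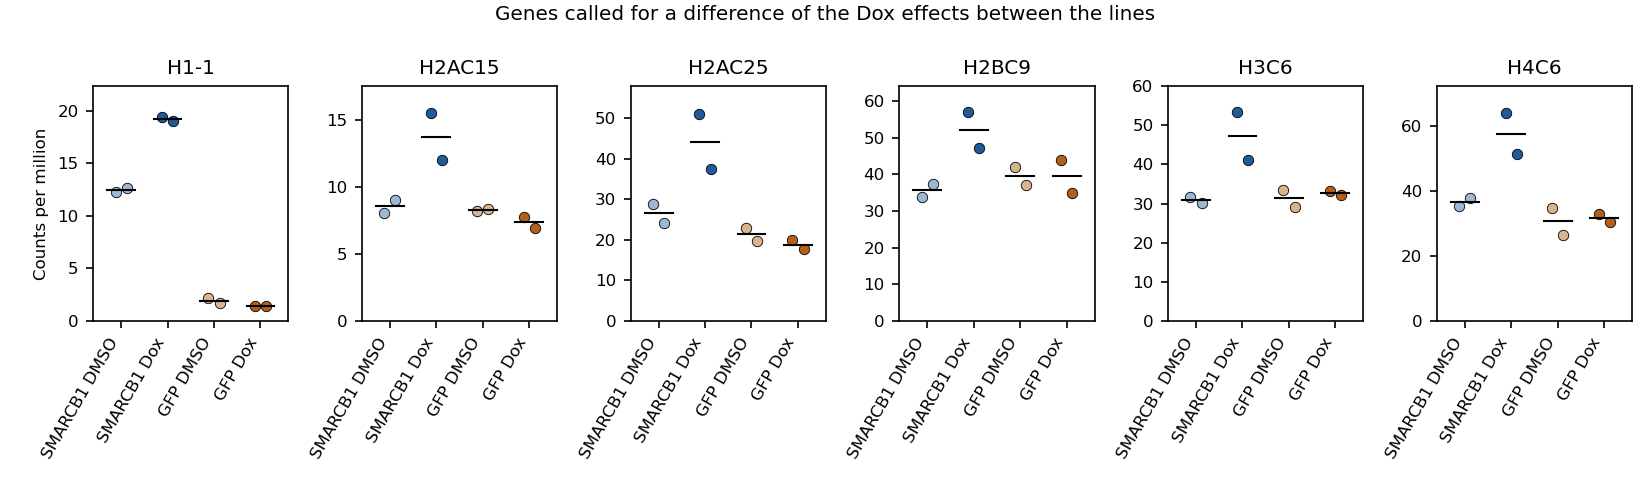
CPM per library (y axes, starting at 0, a scale for each gene) of the 6 genes whose Dox effect differed between the lines, by group. Points are the 2 libraries of a group, replicate 1 on the left, and bars are their mean. H1-1 lies at 12.3 to 19.4 CPM in the SMARCB1 line and at 1.39 to 2.13 CPM in the GFP line, while H4C6 lies at 26.5 to 37.9 CPM in all groups other than SMARCB1 Dox.

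Variant genes moved less as a group. Their summed level was 886 and 937 CPM with SMARCB1 DMSO and 1017 and 975 CPM with SMARCB1 Dox, a ratio of 1.09, and it was 889 and 859 CPM with GFP DMSO and 899 and 848 CPM with GFP Dox, a ratio of 0.999. Of the 10 tested variants 3 rose with Dox in the SMARCB1 line (30.0%, beside 8.33% of all genes called higher), none fell, and the median was 0.13. The difference between clustered and variant genes was not tested.

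Of the genes for H3.3, the replication-independent H3, H3-3B was at 151 and 154 CPM with SMARCB1 DMSO and at 196 and 184 CPM with Dox. This was a rise of 0.32 ± 0.0829 (edgeR adjusted p = 0.0115), lost without SMARCB1 DMSO 1, at 0.30, or SMARCB1 Dox 1, at 0.27. H3-3A, which encodes the same protein, was at 51.4 and 51.3 CPM with DMSO and 57.6 and 55.0 CPM with Dox and did not pass (0.13, edgeR adjusted p = 0.344). H3-5, an H3.3-like retrogene, was listed at 0.506 to 0.973 CPM over all libraries.

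H2AX, the variant with a histone stem-loop, went from 137 and 129 CPM to 184 and 151 CPM in the SMARCB1 line, 0.33 ± 0.0885 (edgeR adjusted p = 0.0138), and was at 123 to 126 CPM in all 4 GFP libraries. Its call was lost without SMARCB1 DMSO 2, at 0.29, without SMARCB1 Dox 1, at 0.18, and with the GC correction and replicate block, at 0.15. The H2A.Z genes did not pass: H2AZ1 was at 111 and 124 CPM with DMSO and 136 and 116 CPM with Dox (0.10), and H2AZ2 at 153 and 166 CPM and at 155 and 164 CPM. In both the groups overlapped.

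MACROH2A1, whose product carries a macrodomain and is known from inactive chromatin, was the most counted variant. It was at 200 and 215 CPM with SMARCB1 DMSO and at 184 and 186 CPM with Dox, the one tested variant whose Dox libraries both lay below the DMSO libraries, by -0.17 (edgeR adjusted p = 0.166). MACROH2A2 was at 11.8 and 13.9 CPM with DMSO and 12.8 and 15.1 CPM with Dox (0.12), which overlapped. H1-10, a linker histone variant, was at 15.6 and 18.7 CPM with DMSO and 22.7 and 20.9 CPM with Dox and missed the threshold (0.34, edgeR adjusted p = 0.0616).

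**Figure D5:**
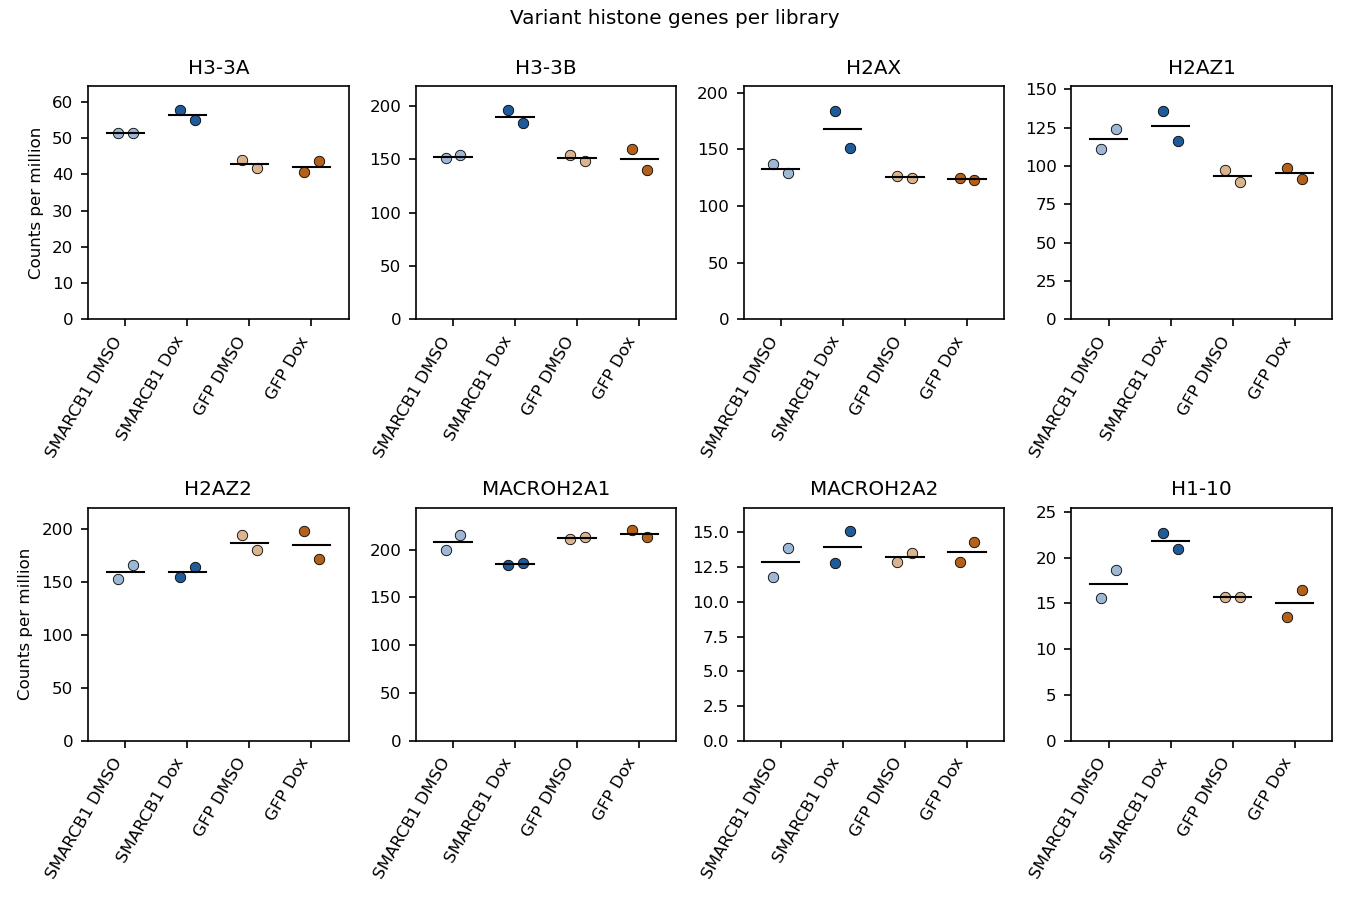
CPM per library (y axes, starting at 0, a scale for each gene) of 8 variant histone genes that passed the filter, by group. Points are the 2 libraries of a group, replicate 1 on the left, and bars are their mean. H2AX lies at 123 to 126 CPM in the GFP line and at 184 and 151 CPM with SMARCB1 Dox, and MACROH2A1 is at 184 and 186 CPM in the SMARCB1 Dox libraries.

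Without Dox the lines differed in few clustered genes. Between SMARCB1 DMSO and GFP DMSO, 3 of 62 clustered genes were higher, H1-1, H3C1 and H4C9, and 1 was lower, H2BC13, beside 32.0% of all genes tested called, 16.3% higher and 15.7% lower. The clustered median was 0.04, with 36 genes above 0, and turned to -0.08 with library totals in place of TMM factors and to -0.11 with an exon length correction and replicate block. Under these, 4 of 5 and 17 of 19 clustered calls were lower. H1-1 differed by 2.72 (edgeR adjusted p = 6.6e-12), a 6.59-fold higher level in the SMARCB1 line. This call held with each library left out in turn. H3C1 was at 71.3 and 71.2 CPM against 61.6 and 51.4 CPM in the GFP line, 0.34 (edgeR adjusted p = 0.0117, lost without GFP DMSO 2, at 0.20, with library totals, at 0.22, and with the length correction and block, at 0.14). H4C9 stood at 20.4 and 21.2 CPM against 17.3 and 15.5 CPM, 0.34 (edgeR adjusted p = 0.0349, lost without GFP DMSO 2 or either SMARCB1 DMSO library, down to 0.26, with DESeq2, at 0.34, with library totals, at 0.23, and with the length correction and block, at 0.10). H2BC13 stood at 8.99 and 8.61 CPM against 13.5 and 11 CPM, -0.48 (edgeR adjusted p = 0.0235, lost without GFP DMSO 1 or either SMARCB1 DMSO library, up to -0.32).

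Of the 10 variants, 3 were higher and 1 lower in the SMARCB1 line without Dox, a share of 40.0% beside the 32.0% of all genes tested called there. H2AZ1 was higher, at 111 and 124 CPM against 97.6 and 89.6 CPM (0.33, edgeR adjusted p = 0.00763, lost without GFP DMSO 2 or SMARCB1 DMSO 2, down to 0.25, and with library totals, at 0.22), whereas its paralog H2AZ2 was lower, at 153 and 166 CPM against 194 and 180 CPM (-0.23, edgeR adjusted p = 0.0474, lost without either GFP DMSO library or SMARCB1 DMSO 1, up to -0.17). H3-3A was at 51.4 and 51.3 CPM against 43.8 and 41.7 CPM (0.27, edgeR adjusted p = 0.0184, lost without any 1 of the 4 DMSO libraries, down to 0.22, and with library totals, at 0.15). With library totals 4 of the 8 calls of histone genes between the lines were kept.

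The genes that make, bind and deposit histones were read in the same way. Of 20 factors of histone gene transcription and mRNA processing, 1 rose and 2 fell with Dox in the SMARCB1 line, with a median of -0.01. That is 15%, near the 14.0% of all genes tested that were called. UPF1, an RNA helicase of histone mRNA decay, went from 25.6 and 29.4 CPM to 36.5 and 35.0 CPM (0.38, edgeR adjusted p = 0.0166). ZNF473, a protein of the U7 snRNP machinery, went from 23.9 and 22.9 CPM to 19.2 and 18.5 CPM (-0.31, edgeR adjusted p = 0.0414), and POU2F1, the octamer-binding factor, from 216 and 225 CPM to 177 and 195 CPM (-0.24, edgeR adjusted p = 0.0440). SLBP was at 53.2 and 58.2 CPM with DMSO and 66.0 and 57.1 CPM with Dox, and NPAT at 51.5 and 55.5 CPM and at 50 and 57.5 CPM. Both overlapped between the groups (edgeR adjusted p = 0.340 and 0.978). The UPF1 call was lost without SMARCB1 DMSO 1 or SMARCB1 Dox 1, that of ZNF473 without any 1 of the 8 libraries and that of POU2F1 without any 1 of them other than SMARCB1 Dox 2. Of 26 tested histone chaperones and loaders 1 rose, DAXX, an H3.3 chaperone (0.36, edgeR adjusted p = 0.0464, lost without any 1 library other than SMARCB1 Dox 2), and none fell. This was 3.85% of the list, below the 8.33% of all genes called higher.

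Of 27 G1/S and S phase genes 3 rose with Dox in the SMARCB1 line and none fell (11.1%, near the 8.33% of all genes called higher), with a median of 0.08. They were the replicative helicase subunit MCM6 (0.49, edgeR adjusted p = 0.000523), the cyclin CCNE2 (0.42, edgeR adjusted p = 0.0281, lost without SMARCB1 DMSO 2 or either SMARCB1 Dox library) and the helicase loader CDC6 (0.31, edgeR adjusted p = 0.0134, lost without SMARCB1 DMSO 1 or SMARCB1 Dox 1). Their list summed to 1965 and 2183 CPM with DMSO and 2189 and 2261 CPM with Dox. Of 15 genes of G2 and mitosis 1 rose (6.67%, also near 8.33%), the kinase gene PLK1 (0.38, edgeR adjusted p = 0.00369), with a median of 0.06. Other RNAs without a poly(A) tail, 5 of 11 listed of which passed the filter, summed to 8048 and 7174 CPM with DMSO and 8346 and 7181 CPM with Dox, and none passed the test. RN7SL1 was at 4201 and 3736 CPM with DMSO and 5277 and 4153 CPM with Dox (0.25), and RMRP at 3827 and 3421 CPM and at 3050 and 3015 CPM (-0.26). Of the 5, 4 had log2 fold changes below 0. The part of cell cycle distribution and of RNA selection in the histone values was not tested. Histone genes outside the symbol rule numbered 2 above the filter, CENPA and H2AJ, both higher in the SMARCB1 line without Dox (0.48 and 0.51, edgeR adjusted p = 0.00476 and 0.0172) and neither called with Dox. The H2AJ call was lost without GFP DMSO 1 or SMARCB1 DMSO 2.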

How the data were processed

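RNA was sequenced from 8 libraries of G401 cells, 4 groups of 2. The deposited files hold raw counts for each gene. The submitters' processing notes name STAR, HTSeq and hg38. Tool versions and the strand setting are not given in the sources used here. The labels name a Laceseq kit and the study's methods a stranded NEBNext kit for the libraries. The paper calls the data total RNA-seq. Whether RNA was selected by poly(A) or by removal of ribosomal RNA is not given in the sources used here. Reads naming no gene (27.0% to 29.3% of reads) stayed out of library sizes and tests. Depth was 29632090 to 37597477 assigned counts.

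Symbols, exons and stop codons came from GENCODE v44 and promoter windows from RefSeq. Genes passing edgeR's filterByExpr (15931) were tested in edgeR 4.0.16 (TMM factors, quasi-likelihood F-test, 1 fit over the 4 groups) with Benjamini-Hochberg adjustment over all of them. CPM values use TMM-scaled library sizes. SE is the absolute log2 fold change over the square root of F. The test was checked on simulated data, with 100 genes changed 1.5-fold and 100 changed 2-fold per contrast. It recovered 63% and 69% of these for Dox in the SMARCB1 line, and 58% and 79% in the GFP line. For the difference of the Dox effects it recovered 42% and 53%, and between the lines 56% and 67%. False calls numbered 4 to 11 among 15931 genes. Smaller changes were not simulated. The alternatives were DESeq2 1.42.0, other scalings and filters, leaving out each library, a replicate block, GC and exon length corrections, and unique-window genes only. Members and lists were chosen with earlier results of these data known. Named genes were all tested variants (1 of them, counted in the totals, is not reported here), the 8 clustered genes with the largest called changes per direction and contrast, the 8 of highest level per kb, up to 4 called genes per list, SLBP, NPAT and SMARCB1. Further genes named in the text, such as H1-2, H1-3, H2BC9, H2BC15, H3C13 and TIPARP, were chosen after their values were seen. Limits for 0 counts cover counting error only.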

Additional observations from a re-analysis of the deposited data

Results flagged for a closer look

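The Dox effect differed between the lines, by the test of the difference in the edgeR fit, in 6 clustered histone genes. The log2 differences, SMARCB1 line minus GFP line, were 1.04 for H1-1, 0.93 for H2AC25, 0.86 for H2AC15, 0.61 for H4C6, 0.56 for H3C6 and 0.55 for H2BC9. In H2AC15 the Dox libraries were at 15.5 and 12.0 CPM in the SMARCB1 line and at 7.76 and 6.94 CPM in the GFP line, against 8.20 and 8.31 CPM with GFP DMSO. The differences of H4C6 and H3C6 (edgeR adjusted p = 0.0356 and 0.0394) were each lost when any 1 of 5 of the 8 libraries was left out, with lowest values of 0.40 and 0.36. No explanation was tested.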

How the results depend on the processing

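With SMARCB1 induced, 28 members (25 clustered) were called. Library totals gave 44 (40), a replicate block 43 (39), and the exon length correction with the block 50 (46), all of them higher. With 1 library left out the calls ran from 6 (5) without SMARCB1 Dox 1 to 37 (35) without SMARCB1 Dox 2. Library totals moved the median of all genes by 0.09. The main test called 8.33% of all genes higher. Library totals called 12.5%, the block 11% and the length correction with the block 11.4%. With GFP induced, 0 members were called under every alternative. For the difference of the Dox effects, the 6 calls became 11 (11 clustered) with library totals, 10 (10) without a filter, 21 (18) with the block, 13 (11) with the GC correction and block and 27 (24) with the length correction and block, and ran from 1 to 17 (1 to 16) with 1 library left out. Between the lines without Dox, the 8 calls (4 clustered) became 14 (10) with the block, 15 (11) with the GC correction and block and 23 (19) with the length correction and block, of which 18 were lower instead of 2, and ran from 4 to 10 (3 to 6). The cause was not tested. Library totals gave 7 calls there, 5 of them lower. Calls over all 15931 genes rose as well. Between the lines they went from 5105 to 5977 with the block, 6272 with the GC correction and block, and 5928 with the length correction and block. For the difference of the Dox effects they went from 750 to 829 with library totals and 1282 with the block. The GC and length corrections with the block gave 1216 and 1270 there. To check for pairing, each gene's deviation of log CPM from its group mean was correlated between same-numbered libraries. These correlations of deviations were 0.0309 to 0.148, all above 0 but not all above 0.1, the cut used. The numbers were therefore not taken to pair the samples. This check cannot exclude an effect shared by same-numbered libraries. With SMARCB1 induced, calls over all genes went from 2234 in the main test to 3149 with the block. All calls of the clustered genes with SMARCB1 induced were higher under each alternative, and no called gene reversed. As a share of assigned counts the clustered ratio was 1.33 instead of 1.24, and windows of 100 bases gave 51 instead of 49 clustered genes with mostly unique sequence. With 2 libraries a group, a left-out library leaves 1 sample that is assumed to vary like the other groups, and small differences are not detectable at this precision.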
